A study of Mus musculus with 96 samples.

Results

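Polyamine metabolism was described through 9 genes: the synthesis enzymes Odc1, Amd1, Srm and Sms, the regulators Azin1, Oaz1 and Oaz2, and the breakdown enzymes Sat1 and Smox. They were taken by symbol from the deposited expression table, and all 9 were among its 24057 listed genes. Single-cell RNA-seq had been performed on EL4 cells, a T-lymphoma line from C57BL/6 mice, with the Fluidigm C1 system, which captures single cells on an integrated fluidics circuit, and the SMARTer protocol. All cells carried a retrovirally delivered shRNA and had been sorted as GFP+. The control cultures WT1 and WT2 carried an shRNA against luciferase (shLuc), and the cultures labelled CTCFKD1 and CTCFKD2 carried an shRNA against CTCF (shCTCF). The paper lists 2 shRNA sequences against CTCF and names the knockdowns shCTCF #1 and shCTCF #2. It does not state which sequence each culture carried, so shCTCF sequence and experiment may not be separable. WT1 and CTCFKD1 formed the initial experiment, called experiment 1 here, and WT2 and CTCFKD2 followed a second knockdown, called experiment 2. Sequencing covered 24 cells from each culture, picked by the authors for quality. Each culture had its own circuit, so culture and circuit cannot be told apart, and the knockdown was a pooled population and not a clone.

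Polyamines (putrescine, spermidine and spermine) are small positively charged molecules that bind RNA and are needed for proliferation, and their synthesis is high in activated and transformed T cells. Odc1 makes putrescine from ornithine, Amd1 supplies the aminopropyl donor, and Srm and Sms use it to make spermidine and then spermine. Antizymes (Oaz1, Oaz2) bind Odc1 protein and send it to the proteasome, and Azin1 traps the antizymes. Sat1 acetylates spermidine and spermine for export or oxidation, and Smox oxidises spermine back to spermidine.

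After 1 cell of WT2 with fewer than 3000 detected genes was left out, 95 cells remained, 24 in WT1, 23 in WT2, 24 in CTCFKD1 and 24 in CTCFKD2. Whole reads recovered from the TPM values (a transcript abundance scaled by gene length and to the same total in every cell) gave a median between 131098 reads per cell in CTCFKD2 and 247586 in WT1. Median genes detected per cell were 4771 and 4635 in WT1 and WT2 and 6172.5 and 5656 in CTCFKD1 and CTCFKD2. With each cell thinned to 80000 reads, they were 4153, 4012, 5241 and 5194. Ctcf, the targeted gene, averaged 60.3 TPM in WT1, 37.1 TPM in WT2, 15.96 TPM in CTCFKD1 and 44.9 TPM in CTCFKD2. The library labelled CTCFKD2 was therefore not below its own control in mean Ctcf mRNA. The SE over cells was 9.49 TPM in WT2 and 10.2 TPM in CTCFKD2. The paper reports reduced CTCF mRNA by qPCR and reduced protein by Western blot for both shCTCF populations. Directions given for CTCFKD2 rest on its label and on that report. All 8 T cell markers examined (Cd3d, Cd3e, Cd3g, Cd2, Cd28, Lck, Thy1 and Ptprc) had reads in each culture. Their summed mean was 8108 TPM in WT1, 8534 TPM in WT2, 5986 TPM in CTCFKD1 and 6317 TPM in CTCFKD2. Cd3d, Cd3g and Lck were lower in both CTCF-KD cultures than in both WT cultures. The other markers overlapped between conditions, with Cd2 highest in CTCFKD2 at 539 TPM. The 4 B cell, 4 myeloid, 3 fibroblast and 2 listed erythroid markers summed to at most 12.9 TPM in any culture and set, the highest value being the myeloid set in CTCFKD2.

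RefSeq promoter windows of GRCm38.p6 were at hand for 7 of the 9 genes, and not for Srm and Azin1. These windows each ran from 250 bases before to 50 bases after a transcript start. They were searched for the E-box CACGTG, the letters bound by Myc and Max, since Myc is known to activate Odc1. The motif reads the same on both strands. Bases outside the windows were not searched, so a motif elsewhere in Odc1 or another gene would be missed. Of the 8 windows, Sms having 2, only the upstream Sms window held the motif, from base 55 of the window, and 7.15% of all 32851 windows in the table held it. The Sms window is shown because it carries the motif, with the motif in capitals, and the Amd1 and Sat1 windows because the cultures of both genes grouped by experiment. The windows lie on the minus strand at chrX:157492238-157492537 (Sms), chr10:40302139-40302438 (Amd1) and chrX:155216400-155216699 (Sat1), and each is written 5′ to 3′.
Sms: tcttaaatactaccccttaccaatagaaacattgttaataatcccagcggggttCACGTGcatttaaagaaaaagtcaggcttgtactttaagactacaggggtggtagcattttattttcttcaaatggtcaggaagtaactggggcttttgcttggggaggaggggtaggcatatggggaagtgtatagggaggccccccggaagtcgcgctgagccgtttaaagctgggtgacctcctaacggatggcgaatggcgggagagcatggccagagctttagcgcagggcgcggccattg
Amd1: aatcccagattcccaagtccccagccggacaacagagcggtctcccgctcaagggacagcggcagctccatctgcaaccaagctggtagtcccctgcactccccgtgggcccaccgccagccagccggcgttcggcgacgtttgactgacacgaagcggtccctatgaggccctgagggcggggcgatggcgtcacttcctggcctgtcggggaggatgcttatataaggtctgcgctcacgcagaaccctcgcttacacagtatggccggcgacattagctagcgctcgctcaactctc
Sat1: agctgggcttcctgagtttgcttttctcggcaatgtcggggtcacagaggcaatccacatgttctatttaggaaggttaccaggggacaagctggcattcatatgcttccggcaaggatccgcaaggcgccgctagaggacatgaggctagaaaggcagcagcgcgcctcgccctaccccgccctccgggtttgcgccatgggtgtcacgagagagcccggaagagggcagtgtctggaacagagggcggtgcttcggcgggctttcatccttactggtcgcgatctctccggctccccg

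Mean TPM over the 4 cultures ran from 342 for Sat1 through 212 for Oaz1, 116 for Azin1, 73.03 for Odc1, 52.3 for Srm, 22.7 for Amd1, 12.4 for Sms and 9.06 for Oaz2 to 8.98 for Smox. Transcripts of the acetyltransferase and of the main antizyme were thus the most abundant of the 9 on this length-adjusted scale. No neighbours in this order were separated, since the ranges of their culture means overlapped at every step. Oaz1 was above Azin1 in each of the 4 cultures, and Sat1 was above Oaz1 in 3 of the 4. Only uniquely mapped reads had been counted, and copies of a gene elsewhere in the genome lower such counts. For Amd1, 87.6% of the 50-base stretches of its longest coding transcript also occur in transcripts of other genes, 86.1% in Amd2 alone. The share was 52.2% for Oaz1 (in Oaz1-ps), 42.2% for Odc1, 28.7% for Sms, 11.98% for Oaz2, 7.28% for Sat1 and 2.40% for Srm, and 0% for Azin1 and Smox. Levels of Amd1, Oaz1, Odc1 and Sms relative to the other genes are uncertain for this reason. Gm49077 overlaps Azin1 on the opposite strand, and reads of the pair cannot be told apart where counting ignores strand.

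**Figure D1:**
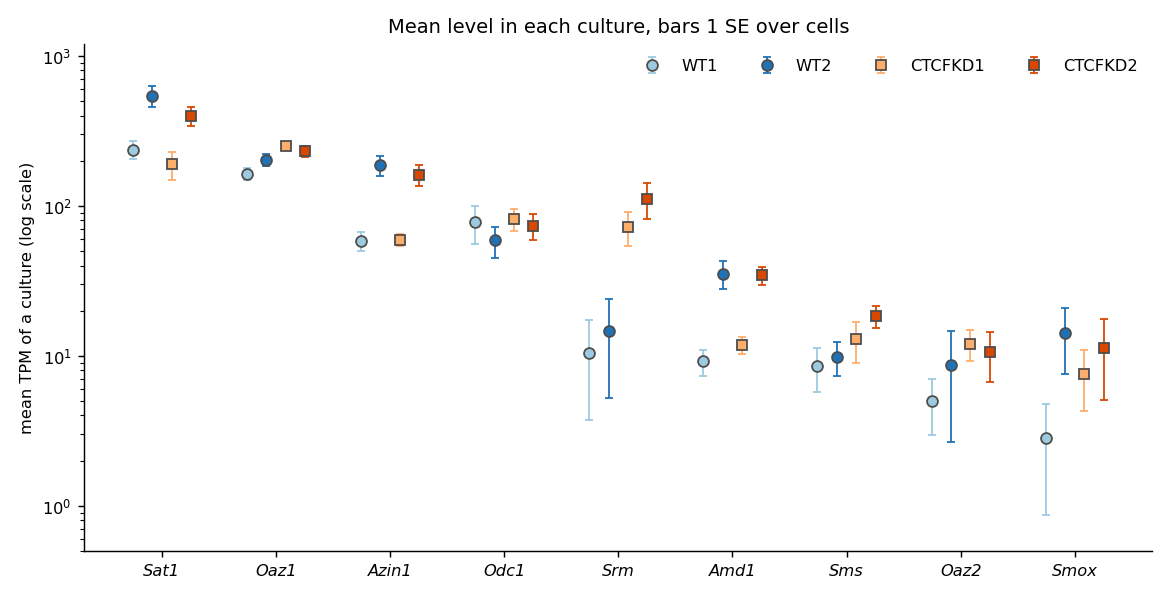
Mean TPM of each culture (log axis) for the 9 genes, ordered by their mean over the 4 cultures, with bars of 1 SE over 23 or 24 cells. Circles are WT1 and WT2, squares CTCFKD1 and CTCFKD2. The squares of Srm (72.8 and 111 TPM) lie above its circles (10.5 and 14.5 TPM), while Azin1, Amd1 and Sat1 separate by experiment.

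Whether shCTCF cultures differed from shLuc cultures was asked gene by gene, with limma over 11980 genes on the log2(mean TPM + 1) values of 2 cultures against 2. None of the 9 passed the Benjamini-Hochberg adjusted threshold of 0.05 in either direction, and over all genes tested 0% were called higher and 0% lower. At an unadjusted p under 0.05, 574 genes were higher and 338 lower. By that measure 4.79% of genes were higher in the cultures labelled CTCF-KD, and among the 9 it was 1, Srm. Of the 9, 7 had a positive and 2 a negative log2 change, with a median of 0.40, and over all genes 52.1% of changes were positive and the median was 0.04. Both CTCF-KD cultures lay above both WT cultures for 4 members (Oaz1, Oaz2, Srm and Sms), as for 19.9% of genes, and below for 0 members, as for 16.9% of genes. With CTCFKD2 left out, CTCFKD1 lay above both WT cultures for 5 members and 31.3% of genes.

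Srm, spermidine synthase (ENSMUSG00000006442, chr4:148591503-148594993, plus strand), had the largest change of the 9. Its mean was 10.5 ± 32.98 TPM (SD, n = 24 cells) in WT1, 14.5 ± 44.7 TPM (n = 23) in WT2, 72.8 ± 90.7 TPM (n = 24) in CTCFKD1 and 111 ± 147 TPM (n = 24) in CTCFKD2. Both shCTCF cultures were above both shLuc cultures. The mean of the CTCF-KD cultures was 7.35 times that of the WT cultures, 6.94 times in experiment 1 and 7.65 times in experiment 2. On the log2 scale the change was 2.77 (SE 0.54), with an unadjusted limma p of 0.00177 and an adjusted p of 0.585, which does not pass. With the experiment as a replicate block the adjusted p was 0.228. When culture values were means over cells of log2(TPM + 1), the change was 3.64 with an adjusted p of 0.0468 (limma), and 44 genes were then called higher and 2 lower, with a median over all genes of 0.23. The statistic of Srm ranked 19 among the 11980 genes.

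The cultures differed in the number of cells with reads of Srm. Reads of Srm were found in 6 of 24 WT1 cells, 4 of 23 WT2 cells, 18 of 24 CTCFKD1 cells and 19 of 24 CTCFKD2 cells. The shares were 25% (exact binomial 95% interval 9.77% to 46.7%), 17.4% (4.95% to 38.8%), 75% (53.3% to 90.2%) and 79.2% (57.8% to 92.9%), and such intervals cover counting error only. In cells with reads, the median level was 20.1 TPM in WT1, 71.3 TPM in WT2, 77.04 TPM in CTCFKD1 and 72.4 TPM in CTCFKD2. The 4 WT2 cells with reads were scattered, at 9.57, 20.1, 122 and 182 TPM, so their median describes none of them. The recovered reads numbered 41, 57, 326 and 221. As RPM (recovered reads scaled to a common total of reads per culture), this was 6.62 (exact Poisson 95% interval 4.75 to 8.98) in WT1, 10.4 (7.86 to 13.4) in WT2, 58.1 (52.01 to 64.8) in CTCFKD1 and 68.4 (59.7 to 78.003) in CTCFKD2. The Poisson intervals do not cover the spread between cells. In WT1 and WT2 the 3 highest cells held 86.7% and 97.1% of the summed Srm TPM, against 44.7% and 44.3% in CTCFKD1 and CTCFKD2. At 80000 reads per cell, Srm had reads in 5 of 24, 2 of 23, 16 of 24 and 16 of 23 cells.

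**Figure D2:**
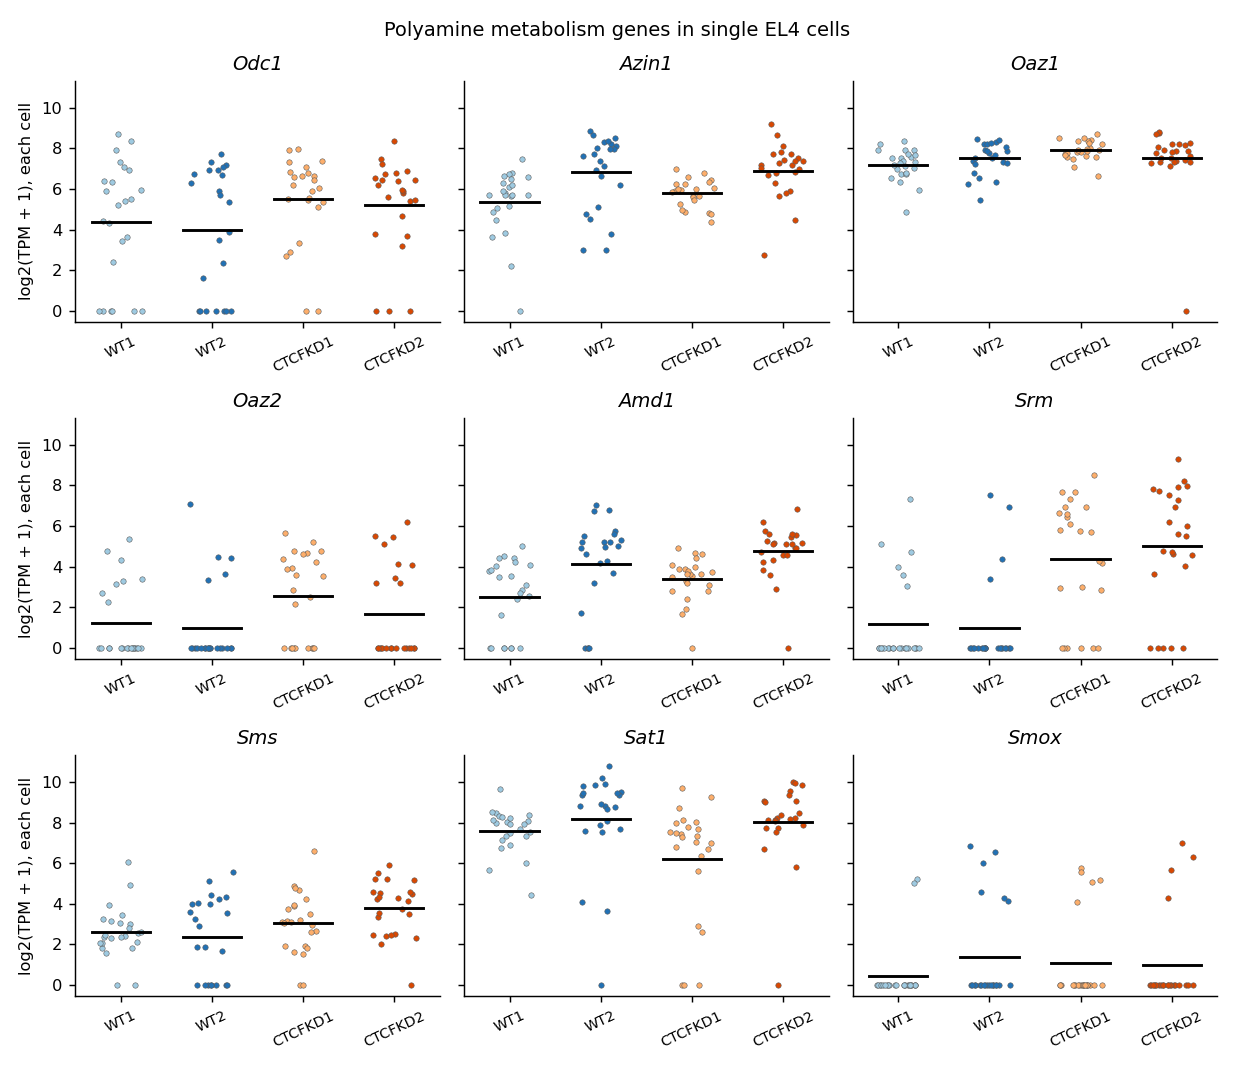
Each point is the log2(TPM + 1) of a gene in a single cell, by culture (24, 23, 24 and 24 cells), and black lines are means over cells. Srm has 18 WT1 and 19 WT2 cells at 0 but 6 CTCFKD1 and 5 CTCFKD2 cells, whereas Oaz1 is at 0 in 1 cell and Smox in most cells of every culture.

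Odc1, ornithine decarboxylase (ENSMUSG00000011179, chr12:17544794-17551505, plus strand), differed little in mean level. The culture means were 77.9 TPM in WT1, 58.7 TPM in WT2, 81.7 TPM in CTCFKD1 and 73.8 TPM in CTCFKD2, with overlap of the conditions. Its log2 change was 0.20 (SE 0.41, limma adjusted p = 0.939). Cells with reads were 18 of 24 and 16 of 23 in WT1 and WT2 and 22 of 24 and 21 of 24 in CTCFKD1 and CTCFKD2. The enzyme at the head of the pathway thus had reads in 34 of 47 control cells and in 43 of 48 cells of the cultures labelled CTCF-KD. Myc, the transcription factor, averaged 241, 238, 344 and 315 TPM in the same order, a log2 change of 0.46 (SE 0.30, limma adjusted p = 0.775).

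Sms, spermine synthase (ENSMUSG00000071708, chrX:157443855-157492287, minus strand), was at 8.50 TPM in WT1, 9.85 TPM in WT2, 12.97 TPM in CTCFKD1 and 18.4 TPM in CTCFKD2. The conditions did not overlap, but the log2 change of 0.70 had an SE of 0.77 (limma adjusted p = 0.870). Its reads were found in 22 of 24, 15 of 23, 22 of 24 and 23 of 24 cells, with WT2 low. At 80000 reads per cell they were found in 14 of 24, 13 of 23, 16 of 24 and 20 of 23 cells, and both shLuc cultures were then below both shCTCF cultures.

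Amd1, S-adenosylmethionine decarboxylase (ENSMUSG00000075232, chr10:40287458-40302186, minus strand), was at 9.20 TPM in WT1, 35.3 TPM in WT2, 11.8 TPM in CTCFKD1 and 34.6 TPM in CTCFKD2. The cultures grouped by experiment and not by condition, and the log2 change between conditions was 0.15 (SE 0.91, limma adjusted p = 0.984). With the replicate block the SE was 0.59 (limma adjusted p = 0.945). Cells with reads were 17 of 24, 19 of 23, 23 of 24 and 23 of 24, so the shCTCF cultures had the higher shares although the levels overlapped.

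The antizyme transcripts were both non-overlapping in mean level. Oaz1 (ENSMUSG00000035242, chr10:80826656-80829290, plus strand) was at 163 TPM in WT1, 203 TPM in WT2, 250.4 TPM in CTCFKD1 and 231 TPM in CTCFKD2, a log2 change of 0.40 (SE 0.32, limma adjusted p = 0.808). Its reads were found in 94 of 95 cells. Oaz2 (ENSMUSG00000040652, chr9:65668001-65690300, plus strand), its less abundant paralog, was at 5.01 TPM in WT1, 8.64 TPM in WT2, 12.04 TPM in CTCFKD1 and 10.6 TPM in CTCFKD2, a log2 change of 0.69 (SE 0.84, limma adjusted p = 0.882). Reads of Oaz2 were present in 8 of 24, 5 of 23, 15 of 24 and 9 of 24 cells. One WT2 cell at 136 TPM held much of that culture's sum, since the 3 highest WT2 cells accounted for 89.6% of it.

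Azin1, the antizyme inhibitor (ENSMUSG00000037458, chr15:38487427-38519266, minus strand), was at 58.4 TPM in WT1, 187 TPM in WT2, 59.6 TPM in CTCFKD1 and 161 TPM in CTCFKD2. As with Amd1, the cultures of experiment 2 were high and those of experiment 1 low. The log2 change between conditions was -0.09 (SE 0.70, limma adjusted p = 0.987). With the replicate block the SE was 0.28 (limma adjusted p = 0.921). Of the 95 cells, 94 had reads of Azin1.

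Sat1, spermidine/spermine acetyltransferase (ENSMUSG00000025283, chrX:155213132-155216449, minus strand), was at 237 TPM in WT1, 542 TPM in WT2, 189 TPM in CTCFKD1 and 399 TPM in CTCFKD2. In both experiments the shCTCF culture had the lower mean, at 0.797 and 0.735 times its control, but the conditions overlapped. The log2 change of Sat1 was -0.38 (SE 0.53, limma adjusted p = 0.896) and did not pass. With the experiment as a replicate block the SE was 0.19 (limma adjusted p = 0.465), which did not pass either. Smox, spermine oxidase (ENSMUSG00000027333, chr2:131491496-131525922, plus strand), was at 2.83 TPM in WT1, 14.2 TPM in WT2, 7.60 TPM in CTCFKD1 and 11.3 TPM in CTCFKD2, from 2 of 24, 6 of 23, 5 of 24 and 4 of 24 cells. Its log2 change was 0.43 (SE 1.01, limma adjusted p = 0.947), with the largest SE of the 9. Recovered reads numbered 24 to 75 per culture for Smox and 29 to 67 for Oaz2.

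**Figure D3:**
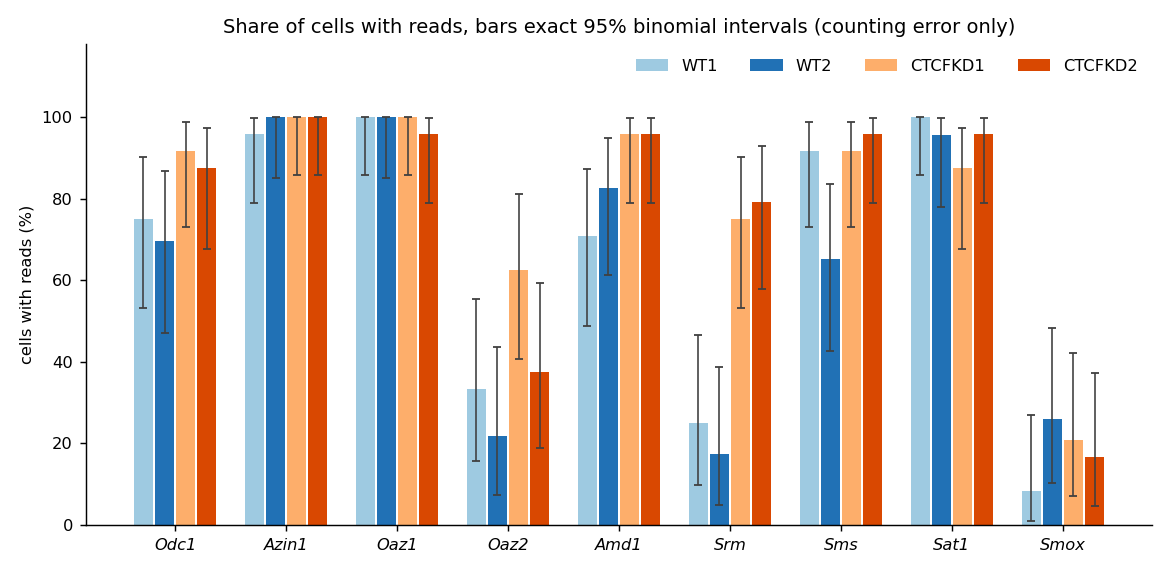
Share of cells with reads (percent) for the 9 genes by culture, with exact 95% binomial intervals that cover counting error only. Srm goes from 25% and 17.4% in WT1 and WT2 to 75% and 79.2% in CTCFKD1 and CTCFKD2, and Azin1 and Oaz1 are at or above 95.8% in every culture.

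The share of cells with reads was compared over cultures by exact two-sided permutation tests, in which 2 cultures against 2 cannot give a p below 0.33. Both shCTCF cultures lay above both shLuc cultures for Odc1, Oaz2, Amd1 and Srm (exact permutation p = 0.33 each), 4 of 9 members, against 36.2% of all genes tested. The mean shares differed by 55.9 percentage points for Srm, 22.5 for Oaz2, 19.1 for Amd1 and 17.3 for Odc1. At 80000 reads per cell these were 53.4, 17.03, 23.3 and 21.4 points. Over all genes the median was 5.98 points, with 69.9% of genes higher in the cultures labelled CTCF-KD. The number of genes detected per cell moved with the same cultures, also after thinning, and its part in these shares was not tested.

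The main question of the study was how the variation of expression from cell to cell changed after CTCF knockdown. Variation was taken here as the CV (SD over mean) of log2(TPM + 1) over the pooled cells of a condition. Calls were made for CV differences over 1 SD away from their mean over 7843 genes, that is below -0.685 or above 0.127. Of the 8 members that entered (Smox was too low), Srm was called decreased, and 11.3% of all genes were. No member was called increased, and 7.68% of genes were. In 6 of the 8 the CV was lower in the shCTCF cells, as in 81.5% of all genes. The CV of Srm was 2.07 over 47 WT cells and 0.634 over 48 CTCF-KD cells, a difference of -1.43. Its SD was higher in the shCTCF cells, at 2.98 against 2.20 on the log2 scale, so the lower CV went with a higher mean and not with a smaller SD.

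Oaz2 lay just inside the lower limit with a difference of -0.668, and Sat1 just inside the upper limit with 0.126. The CV of Sat1 went from 0.240 to 0.367, that of Oaz1 from 0.106 to 0.160, that of Odc1 from 0.721 to 0.420, that of Amd1 from 0.658 to 0.339, that of Sms from 0.666 to 0.434 and that of Azin1 from 0.309 to 0.187. Sat1 was at 0 in 3 of 24 CTCFKD1 cells, where its CV was 0.464, whereas it was 0.142 in WT1, 0.302 in WT2 and 0.246 in CTCFKD2. The higher pooled CV of Oaz1 in CTCF-KD came with CTCFKD2, where 1 cell was at 0 and the CV was 0.222, against 0.107 in WT1, 0.104 in WT2 and 0.060 in CTCFKD1. That cell was the shallowest of the 95, with 41591 reads and 3150 genes. Thinning to 80000 reads leaves that cell out, but Oaz1 then had reads in 23 of 24 WT1 cells, against 24 of 24 before. The CV difference of Oaz1 went from 0.053 to -0.111, and the parts of these changes were not separated. It was also negative with linear TPM (-0.085) and with all 96 cells (-0.023).

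With the culture as the replicate, limma on the CV of each culture over 7823 genes called Srm lower. Its CVs were 1.87 in WT1, 2.35 in WT2, 0.680 in CTCFKD1 and 0.5995 in CTCFKD2, and the change was -1.47 (SE 0.20, adjusted p = 0.0455). It was 1 of 8 members called, and 1.89% of genes were called lower, with a median change over all genes of -0.22. The call was lost without CTCFKD1 (change -1.51, limma adjusted p = 0.314) and without CTCFKD2 (change -1.43, adjusted p = 0.257), with changes of about the same size, and with the SD in place of the CV the change was 0.78 (adjusted p = 0.228). The change was -0.31 (SE 0.10, limma adjusted p = 0.130) for Odc1 and -0.34 (SE 0.13, adjusted p = 0.174) for Amd1, neither of which passed. For Oaz2, Sms, Azin1, Sat1 and Oaz1 the changes were -0.67, -0.24, -0.13, 0.13 and 0.04, with limma adjusted p-values from 0.266 to 0.768.

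**Figure D4:**
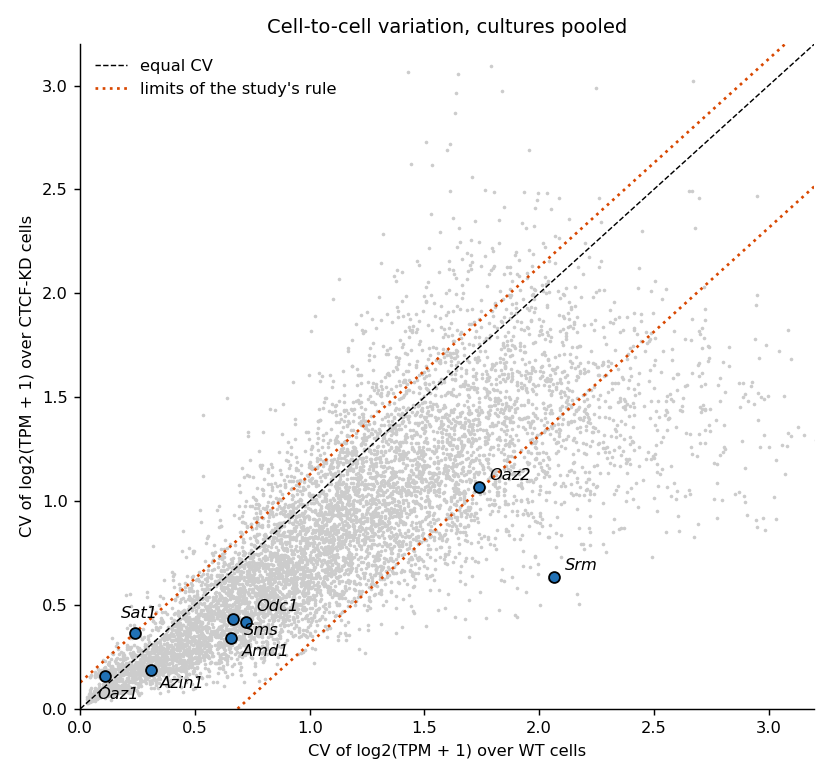
CV of log2(TPM + 1) over WT cells (x axis) and CTCF-KD cells (y axis), cultures pooled, for 8 members (blue) and all genes compared (grey, with 46 genes beyond 3.2 not drawn). The dashed line marks equal CV and the dotted lines the limits of the study's rule. Srm (2.07 and 0.634) lies below the lower limit and the other members between the limits.

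Azin1, Amd1 and Sat1 differed more between the experiments than between shCTCF and shLuc cultures. Azin1 was 3.203-fold higher in WT2 than in WT1 and 2.70-fold higher in CTCFKD2 than in CTCFKD1. The corresponding ratios were 3.84 and 2.94 for Amd1 and 2.28 and 2.11 for Sat1. A limma term for experiment, with condition in the fit and added after these means were seen, gave log2 differences of 1.54 (SE 0.28, unadjusted p = 0.00174, adjusted p = 0.188) for Azin1, 1.65 (SE 0.59, unadjusted p = 0.0323, adjusted p = 0.348) for Amd1 and 1.13 (SE 0.19, unadjusted p = 0.00114, adjusted p = 0.165) for Sat1. At an unadjusted p under 0.05, these 3 of 9 members were higher in experiment 2, as were 8.53% of all genes, and at the adjusted threshold 0 of 9 members and 0% of genes were. Members had a median difference of 0.52 and all genes one of 0.20. By the same term, Smox (1.25, SE 0.86) and Odc1 (-0.27, SE 0.32) also differed more between experiments than between conditions. Their log2 changes between conditions were 0.43 and 0.20, and neither experiment difference passed the unadjusted threshold.

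In RPM, which do not use gene length, both cultures of experiment 2 were again above both cultures of experiment 1 for each of the 3 genes. Azin1 was at 156 (exact Poisson 95% interval 146 to 166) in WT1, 436 (419 to 454) in WT2, 172 (161 to 183) in CTCFKD1 and 440 (417 to 463) in CTCFKD2. Amd1 was at 13.9 (11.1 to 17.2), 49.3 (43.6 to 55.6), 20.7 (17.1 to 24.8) and 57.2 (49.3 to 66.1) RPM in these cultures. For Sat1 the values were 169 (159 to 180), 299 (285 to 314), 130.4 (121 to 140.2) and 249 (232 to 267) RPM. These Poisson intervals cover the counting of reads only, and not the spread between cells or cultures. Median reads per cell were 247586 in WT1, 234260 in CTCFKD1, 230477 in WT2 and 131098 in CTCFKD2. Depth in WT2 was thus close to that of experiment 1, and only CTCFKD2 was clearly shallower. The part of depth or circuit in these differences was not tested. Odc1 had lower means in the experiment 2 culture of both conditions, with ratios of 0.7535 and 0.903, and Srm, Sms and Smox had higher ones, at 1.39 and 1.53, 1.16 and 1.42, and 4.999 and 1.49.

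Beyond the 9, a list of 30 genes of the wider pathway was used, of which 29 were among the listed genes and 21 were tested in the same fit. At an unadjusted p under 0.05, 2 of the 21 were higher (4.79% of all genes) and 0 lower in the cultures labelled CTCF-KD, and 0 passed adjustment. Of the 21, 14 had a positive and 7 a negative change, with a median of 0.16. Mri1, an isomerase that salvages methionine from methylthioadenosine (the by-product of Srm and Sms), was at 8.78 TPM in WT1, 3.78 TPM in WT2, 63.4 TPM in CTCFKD1 and 31.8 TPM in CTCFKD2, a log2 change of 2.75 (SE 0.78, unadjusted p = 0.0108, limma adjusted p = 0.585). Eif5a, the translation factor whose hypusine residue is built from spermidine, was at 639 TPM, 870 TPM, 1198 TPM and 1553 TPM in the same order, with reads in all 95 cells and a log2 change of 0.87 (SE 0.32, unadjusted p = 0.0307, limma adjusted p = 0.610). For both genes the shCTCF cultures lay above the shLuc cultures.

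By group, the median log2 change was 0.87 over 3 tested hypusine genes, 0.43 over 8 methionine cycle and salvage genes, 0.43 for the oxidase Paox, -0.0020 over 4 genes of ornithine and arginine supply and -0.18 over 5 transport genes. Paox had reads in 3 cells and a mean of at most 0.903 TPM in any culture. Slc12a8, in the transport group, had reads in 2 cells. The conditions did not overlap for 6 of the 21, 5 of them higher in CTCF-KD (19.9% of all genes) and 1 lower (16.9% of all genes), which were picked out after their values were seen. These were Oat, Mtap, Mri1, Dohh and Eif5a, higher in both CTCF-KD cultures (log2 changes of 0.53, 0.88, 2.75, 2.01 and 0.87), and Slc7a1, an arginine carrier, lower in both (-0.33). No paralog of a member was tested: Oaz3, Sat2 and Satl1 were listed at 0 in all cells, Azin2 had reads in 1 cell, and the symbol Amd2 was not among the listed genes.

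**Figure D5:**
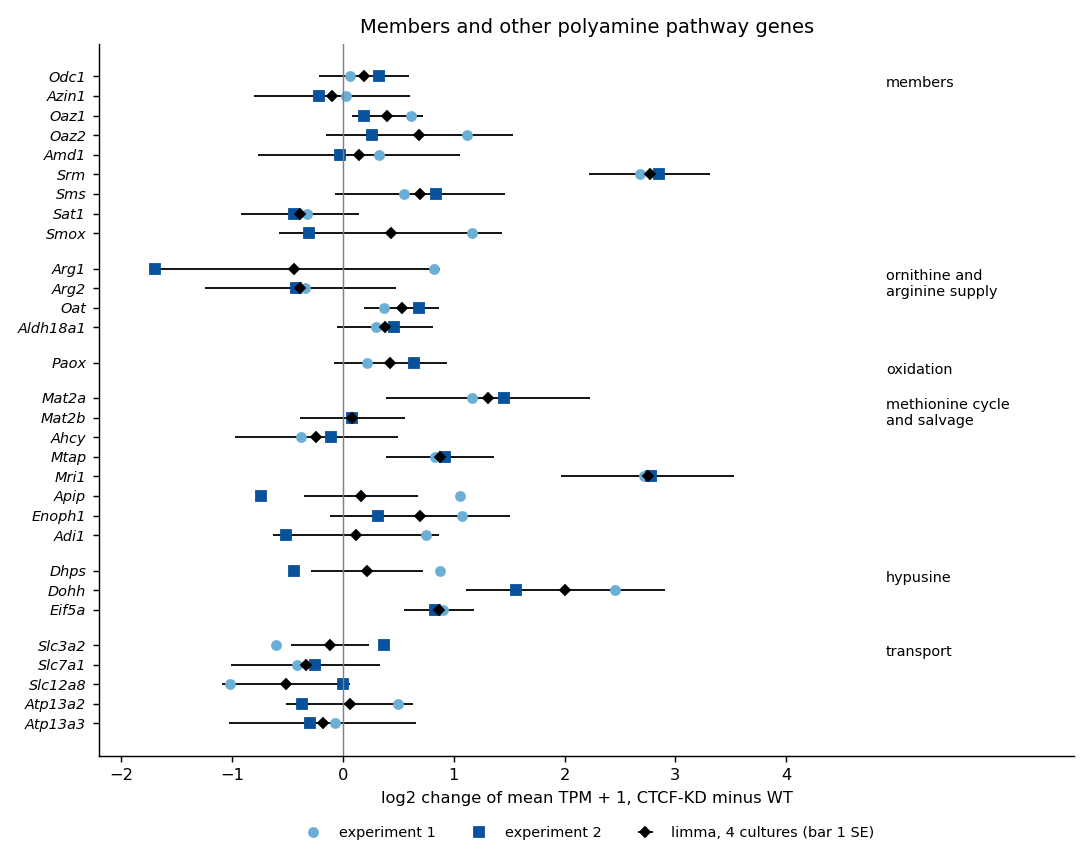
Log2 change of mean TPM + 1, CTCF-KD minus WT, for the 9 members and 21 other pathway genes, by group. Diamonds are limma estimates over 4 cultures with bars of 1 SE, circles experiment 1 and squares experiment 2. Srm (2.68 and 2.85) and Mri1 (2.72 and 2.78) lie farthest to the right in both experiments.

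Across the cells of a culture the 9 genes did not move as a block. Spearman's rho was computed within each culture (23 or 24 cells, which share a circuit and differ in depth) for the 36 pairs. Its mean over the 4 cultures ran from -0.22 for Sms and Sat1 to 0.20 for Oaz2 and Amd1, with a median of 0.04. The sign was the same in all 4 cultures for 5 pairs. For the number of genes detected in the cell, the mean rho was between -0.06 (Oaz1 and Sat1) and 0.29 (Smox), and for recovered reads between -0.16 and 0.19. In counts this sparse, such values are descriptions only.

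Among 7842 other genes, those most like each member with reads in at least 48 cells were named by the same mean rho. For Odc1 they were Ube2j2 (0.48), Farsb (0.45) and Snhg4 (0.40), and for Azin1 Lta4h (0.44), Ctdsp2 (0.42) and Hmga1 (0.39). For Oaz1, the T cell surface genes Cd53 (0.43) and Cd2 (0.40) and Nrgn (0.40) came first. Amd1 was most like Mcts1 (0.38), H2-T24 (0.36) and Med7 (0.35), Sms most like Rhof (0.39), Hspa4 (0.36) and Smyd4 (0.35), and Sat1 most like Tpm3 (0.46), Phf8 (0.44) and Arl4a (0.39). The median over all genes lay between -0.01 and 0.04 for these 6 members. The named genes are the highest of 7842 ranked values, and whether they exceed what such a ranking gives by itself was not tested. Some had reads in few of the 95 cells, such as Ctdsp2 (26), Med7 (38) and Rhof (43). No member was among the 3 named for another. Srm, with reads in 47 cells, fell just short of that number of cells.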

How the data were processed

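The authors aligned reads to GRCm38 (Ensembl 89) with STAR, used HTSeq to count the uniquely mapped ones per gene and deposited TPM of 96 cells. The strand setting and the gene lengths behind the deposited TPM are not given in the sources used here. No molecular identifiers were described, so the Poisson intervals cover counting error of reads only. They cover neither the counting of molecules nor the spread between cells or cultures. The binomial intervals cover the counting of cells only. The members and lists were chosen with earlier results of these data known.

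Cells with fewer than 3000 genes were left out (1 cell). Whole reads were recovered from the common steps of the TPM values. The tolerance of 0.001 of a read was met by 504605 of 504605 values above 0, and the procedure was tested on simulated data. Recovered reads gave depth, RPM and the thinning to 80000 reads (94 cells, 1 being too shallow), and no count model was fitted. Totals were 6192121 reads in WT1, 5493040 in WT2, 5606532 in CTCFKD1 and 3232422 in CTCFKD2, so values of CTCFKD2 are the least precise.

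Cells are not replicates, so limma 3.58.1 (trend, two-sided, Benjamini-Hochberg) was run in R 4.3.3 on log2(mean TPM + 1) of each culture, with a pseudocount of 1 that understates changes of low genes, over the 11980 genes for which 2 or more cells had a log2(TPM + 1) above 1. Fewer expressing cells and less RNA per cell cannot be told apart in such means. The CV used 7843 genes with a mean log2(TPM + 1) above 1, and its culture test 7823. Culture numbers pair the samples, since the methods give number 1 as the initial experiment and number 2 as the second knockdown. Deviations of same-numbered cultures had a correlation of 0.275 over genes. The fit had no replicate block, and the block was an alternative.

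Named genes were the 9 members, Ctcf, Myc, the other pathway genes with an unadjusted limma p under 0.05, and for each member with reads in at least 48 cells the 3 genes with the highest mean rho. Other pathway genes, named where a count or group was small, were chosen after their values were seen. Coordinates and transcripts were from GENCODE M21 (GRCm38). Alternatives covered the pseudocount, the scale, gene and cell filters, centring, RPM, thinning, the replicate block, each experiment alone and leaving out each culture.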

Additional observations from a re-analysis of the deposited data

Results flagged for a closer look

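For 3 of the 9 genes the change between the cultures labelled CTCF-KD and WT had opposite signs in the 2 experiments, each with 1 culture per condition, so the difference between experiments was not tested. Smox, the spermine oxidase, had a log2 change of 1.17 in experiment 1 and -0.30 in experiment 2, from 2 of 24 and 5 of 24 cells with reads in WT1 and CTCFKD1 and 6 of 23 and 4 of 24 in WT2 and CTCFKD2. Amd1, the S-adenosylmethionine decarboxylase, had 0.33 in experiment 1 and -0.028 in experiment 2. Azin1, the antizyme inhibitor, had 0.028 in experiment 1 and -0.22 in experiment 2. The limma SE over cultures was 1.01 for Smox, 0.91 for Amd1 and 0.70 for Azin1. With the replicate block it was 0.86, 0.59 and 0.28. In Ctcf itself the signs were opposite too, at -1.85 in experiment 1 and 0.27 in experiment 2.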

How the results depend on the processing

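For expression, 0 members were called higher in every alternative except the mean over cells of log2(TPM + 1), where 1 was (Srm), and no alternative called a member lower. The log2 change of Srm stayed between 2.16 and 3.64. Azin1 turned to 0.25 with the mean over cells of log2(TPM + 1) and to 0.076 with summed RPM, without a call. With a culture left out, signs turned, all uncalled, for Odc1 (range -0.0059 to 0.40, negative without WT2), Azin1 (-0.93 to 0.74, positive without WT2 and, at 0.61, without CTCFKD1), Amd1 (-0.77 to 1.06, negative without WT1 and, at -0.59, without CTCFKD2), Sat1 (-0.98 to 0.21, positive without WT2 and, at 0.15, without CTCFKD1) and Smox (-0.56 to 1.42, negative without WT1). Members with every CTCF-KD culture above every WT culture numbered from 4 to 7, with 7 without WT2 (and 39.2% of genes).

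With the replicate block the adjusted p of Srm was 0.228 for expression and 0.0149 for the CV, and the block changed no call of a member. With the SD in place of the CV, 0 members were called lower, and the changes of Srm and Oaz2 turned to 0.78 and 0.29. With a culture left out, 0 to 1 were called, and the CV change of Oaz1 ran from -0.046 without CTCFKD2 to 0.12 without CTCFKD1. By the study's rule, Srm was called decreased in all alternatives. Decreased members became 2 with the CV of linear TPM and with the mean above 1 in both conditions (Oaz2 added), and 1 to 2 with a culture left out. Increased members became 1 with a pseudocount of 0.1 (log2 values shifted so that 0 TPM stayed at 0) and in experiment 1 alone (Sat1), 2 with the mean above 1 in both conditions (Oaz1 and Sat1), and 0 to 1 with a culture left out. The causes were not tested. Precision was limited by 2 cultures per condition and by few reads of Smox (24 to 75 per culture) and Oaz2 (29 to 67).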
